A study of Mus musculus with 6 samples.

Results

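Astrocyte transport and identity genes were read in mouse neural stem cell lines, 3 labelled FoxO-null and 3 labelled wild-type. They are 10 listed genes, Glul, Slc1a3, Slc1a2, Aqp4, Aldoc, Gfap, Ndrg2, Atp1b2, Aldh1l1 and Gja1, out of 18193 genes that the array names through a probe set of 1 gene. Every probe set annotated to exactly 1 of these symbols was taken, which gave 32 of 34945 such probe sets. The genes were picked with the difference between the groups already known, so their values across the groups are a description and carry no test. The labels give each line only as a neural stem cell line that is FOXO null or FOXO WT. They name neither the FoxO genes removed nor the alleles, the Cre driver, the strain, the age, the brain region or the culture medium, and they do not say whether a line is a clone. Total RNA of each line was hybridised to 1 Affymetrix array, and the values are linear MAS5 signals, a summary of the probes of a probe set after mismatch correction and scaling of each array to a common level.

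Astrocytes clear glutamate from the space around synapses, turn it into glutamine, and take up the potassium and water that neuronal activity releases. The same genes mark radial glia and adult neural stem cells in part, since these cells share a glial character, and their transcripts climb as progenitors turn into astrocytes. FoxO proteins are forkhead transcription factors, held in the cytoplasm when insulin signalling is active, and glutamine synthetase is a known FoxO target in other cells.

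The FoxO genes themselves went against the labels, and each direction given here follows the labels as they stand. Foxo1 read 77.9, 77.8 and 100.3 on the arrays labelled FoxO-null and 20.3, 20.4 and 31.7 on those labelled wild-type (limma adjusted p 0.0729). Foxo4 read 178, 57.2 and 189.9 in the FoxO-null lines and 5.56, 4.14 and 17.1, not above background, in the wild-type lines (adjusted p 0.0471 in limma). Against the background of the wild-type arrays its FoxO-null level was at least 7.62-fold higher. Foxo4 passed the threshold of 0.05 in 5 of 15 alternative settings, with adjusted p between 0.0241 and 0.485 over them. These FoxO readings use 1 probe set per gene, the brightest. With the mean of all Foxo4 probe sets, its log2 difference of 3.24 fell to 1.46 (limma adjusted p 0.143). Foxo3 overlapped between the groups (0.66 ± 0.25 on the log2 scale, limma adjusted p 0.404). Whether the labels of the groups were exchanged, which would turn every direction given here, or the probes lie outside a deleted part was not tested. The lines carried transcripts of the labelled cell type: all 10 neural stem cell markers examined, among them Nes, Sox2 and Pax6, lay above background on all 6 arrays. So did 10 of 12 oligodendrocyte lineage genes and 9 of 12 neuron genes, so this measure does not single out neural stem cells. Background here is the highest of 27 bacterial control probe sets of the same array, between 19.2 and 27.6 on FoxO-null arrays and between 14.4 and 19.1 on wild-type arrays. The 3' to 5' signal ratios of the actin control were 1.03 to 1.07 in FoxO-null lines and 1.09 to 1.12 in wild-type lines. The 5' 18S rRNA control read 211 on wild-type 1 and 23.5 to 38.9 on the other arrays. Differences of the 10 genes that depend on wild-type 1 are therefore also given without it. Xist, the RNA that coats the inactive X chromosome of female cells, read 5922 in FoxO-null 2 and 35.8 and 33.1 in FoxO-null 1 and 3, against 3733 and 6327 in wild-type 1 and 2 and 25.5 in wild-type 3.

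Higher signals in the FoxO-null lines were the common pattern of these genes, with separated groups in 7 of the 10. Glul, Aqp4, Ndrg2 and Atp1b2 had the widest separation, with signals between 1.84 and 1.97 times the wild-type mean. Slc1a3, Aldoc and Gfap were separated by smaller steps. Slc1a2, Aldh1l1 and Gja1 overlapped. Of all 12665 genes tested, 8.08% had all FoxO-null arrays above all wild-type arrays, and no reading is taken from the members' share since this contrast chose them. These are whole cultures, in which fewer cells of a type and less RNA per cell cannot be told apart.

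**Figure D1:**
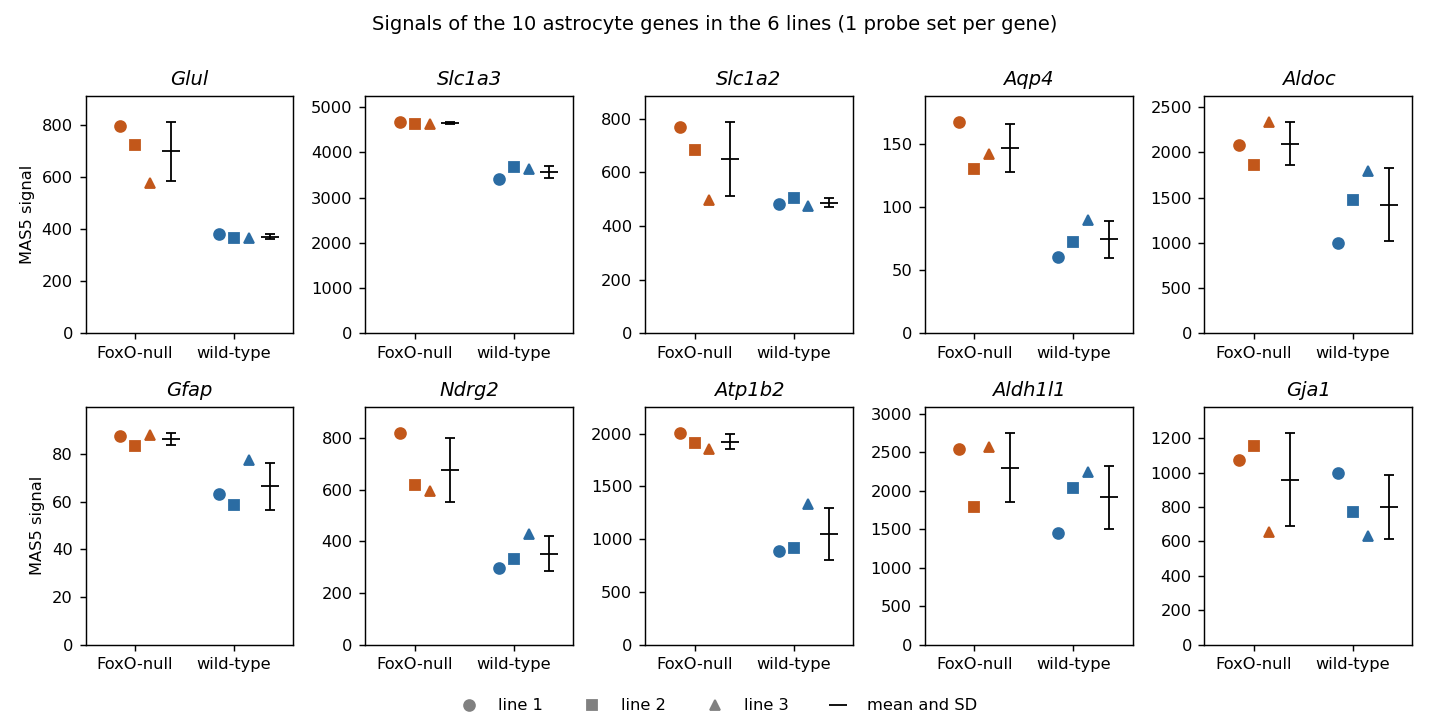
MAS5 signal (linear axis from 0) of each of the 10 genes in the 3 FoxO-null lines (orange) and the 3 wild-type lines (blue), 1 probe set per gene, with symbols for the lines and bars for the mean and SD of each group. All FoxO-null points lie above all wild-type points for 7 genes and overlap for Slc1a2, Aldh1l1 and Gja1.

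Glutamine synthetase, encoded by Glul, joins glutamate and ammonia into glutamine and is a standard astrocyte enzyme. Its brighter probe set read 798, 723 and 576 in FoxO-null lines 1 to 3 and 382, 366 and 365 in wild-type lines 1 to 3. The FoxO-null lines were spread widely, the wild-type lines lay close together, and there was a clear gap between the groups. The means were 699 ± 113 in FoxO-null and 371 ± 9.62 in wild-type lines (SD, n = 3 each), a log2 difference of 0.89 ± 0.13 (SE of the limma fit, FoxO-null minus wild-type, as throughout). The second Glul probe set read 455, 351 and 378 in FoxO-null lines and 256, 274 and 270.4 in wild-type lines, a smaller log2 difference of 0.55 ± 0.13. Both probe sets put FoxO-null 1 at the top.

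Slc1a3 (GLAST) and Slc1a2 (GLT-1) encode the sodium-coupled glutamate transporters of astrocytes, and GLAST is also a radial glia marker. The brightest Slc1a3 probe set read 4672, 4627 and 4636 in FoxO-null lines and 3408, 3670 and 3629 in wild-type lines. The FoxO-null lines were nearly equal and all above the wild-type lines, with a log2 difference of 0.38 ± 0.12. Of the 6 Slc1a3 probe sets, 3 were separated in this direction, and the 4 above background on all 6 arrays ranged in log2 difference between 0.28 and 0.68. The probe set at the top of that range read 2133, 1855 and 1221 in FoxO-null lines and 1096, 978 and 1082 in wild-type lines, so FoxO-null 3 lay close to the wild-type lines there. A dim Slc1a3 probe set, at or below background on FoxO-null 3, went the other way at -0.55 ± 0.40, with 108, 51.5 and 22.2 in FoxO-null lines and 66.0, 89.1 and 79.6 in wild-type lines.

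The brightest Slc1a2 probe set read 768, 684 and 498 in FoxO-null lines and 484, 505 and 474 in wild-type lines. FoxO-null 3 fell inside the wild-type range, so the groups overlapped at a log2 difference of 0.39 ± 0.15, which was 0.26 without FoxO-null 1. A dimmer Slc1a2 probe set was separated by more: it read 36.5, 41.9 and 57.6 in FoxO-null lines and 10.9, 4.25 and 5.10 in wild-type lines. All 3 wild-type signals were not above background, which makes the FoxO-null level at least 2.72-fold higher, from the geometric mean of those lines over that of the wild-type background levels. The other 3 Slc1a2 probe sets overlapped, with log2 differences between -0.23 and 0.26 and dim signals, so the Slc1a2 probe sets disagreed.

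Aqp4, the water channel of astrocyte endfeet, was dim in all lines. Its brightest probe set read 167, 130.5 and 142 in FoxO-null lines and 60.5, 72.4 and 90.1 in wild-type lines. The groups were well apart, with FoxO-null lines averaging 147 ± 18.8 and wild-type lines 74.3 ± 14.9 (SD, n = 3 each). The log2 difference was 0.94 ± 0.19, 0.81 without wild-type 1 and 1.07 without wild-type 3. The next probe set read 79.1, 73.2 and 102.9 in FoxO-null lines and 28.6, 34.5 and 57.3 in wild-type lines, a log2 difference of 1.02 ± 0.28. The dimmest Aqp4 probe set overlapped at 0.60 ± 0.39.

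Atp1b2 (AMOG) is the glial beta subunit of the sodium pump and an adhesion molecule. It read 2005, 1916 and 1856 in FoxO-null lines and 891, 916 and 1332 in wild-type lines. The FoxO-null lines were close together, and wild-type 3 stood above the other two wild-type lines but below every FoxO-null line. The log2 difference was 0.90 ± 0.15, 0.80 without wild-type 1 and 1.09 without wild-type 3. The second probe set gave 815, 583 and 621 in FoxO-null lines and 306, 388 and 452 in wild-type lines, at 0.81 ± 0.16. Genes of other beta subunits were named after their values were seen: Atp1b1 was at 0.02 ± 0.17 and Atp1b3 at -0.17 ± 0.11 (limma adjusted p 0.987 and 0.630 over all genes).

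Aldoc, the brain aldolase of glycolysis that marks astrocytes and Purkinje cells, read 2085, 1863 and 2337 in FoxO-null lines and 997, 1479 and 1792 in wild-type lines. FoxO-null 2 lay just above wild-type 3, and wild-type 1 was well under the rest. The log2 difference of 0.59 ± 0.19 was 0.36 without wild-type 1. The second Aldoc probe set was dim and overlapped at 0.73 ± 0.46. It read 23.3, 33.9 and 55.8 in FoxO-null lines and 15.5, 11.3 and 36.3 in wild-type lines. Aldh1l1, a folate enzyme used as a pan-astrocyte marker, read 2549.6, 1786 and 2573 in FoxO-null lines and 1457, 2036 and 2252 in wild-type lines. FoxO-null 2 lay below 2 of the wild-type lines. Its log2 difference of 0.27 ± 0.18 was 0.08 without wild-type 1 and 0.44 without FoxO-null 2. The second Aldh1l1 probe set overlapped at 0.12 ± 0.32.

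Gfap, the astrocyte intermediate filament, was dim: its brightest probe set read 87.5, 83.5 and 87.9 in FoxO-null lines and 63.1, 58.7 and 77.4 in wild-type lines. The groups did not overlap, but the gap between FoxO-null 2 and wild-type 3 was small, and the log2 difference was 0.36 ± 0.20. The second probe set read 35.6, 22.2 and 30.5 in FoxO-null lines and 5.31, 4.95 and 36.5 in wild-type lines, so wild-type 3 lay above every FoxO-null line. The third was not above background on any of the 6 arrays. Ndrg2, a cytoplasmic protein gene of the NDRG family that is enriched in astrocytes, had a single probe set. It read 819, 617 and 595 in FoxO-null lines and 298, 332 and 427 in wild-type lines, with FoxO-null 1 at the top, wild-type 3 the highest of its group, and no overlap. The means were 677 ± 123 in FoxO-null and 352 ± 67.0 in wild-type lines (SD, n = 3 each). The log2 difference of 0.93 ± 0.16 was 0.82 without wild-type 1 and 1.08 without wild-type 3.

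Gja1 (connexin 43), the main gap junction protein of astrocytes, had overlapping groups. Its brightest probe set read 1075, 1154 and 653 in FoxO-null lines and 1001, 771 and 629 in wild-type lines. FoxO-null 3 and wild-type 3 were low and close to each other, and the other lines were mixed. The log2 difference of 0.24 ± 0.21 was 0.50 without FoxO-null 3, 0.42 without wild-type 1, 0.14 without FoxO-null 1, and 0.09 without FoxO-null 2 or without wild-type 3. All 6 Gja1 probe sets had positive log2 differences, between 0.19 and 0.39, and 5 of them overlapped. By their names, ending in x_at, 4 of the 6 may also bind other transcripts, as may the brightest Slc1a3 probe set.

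**Figure D2:**
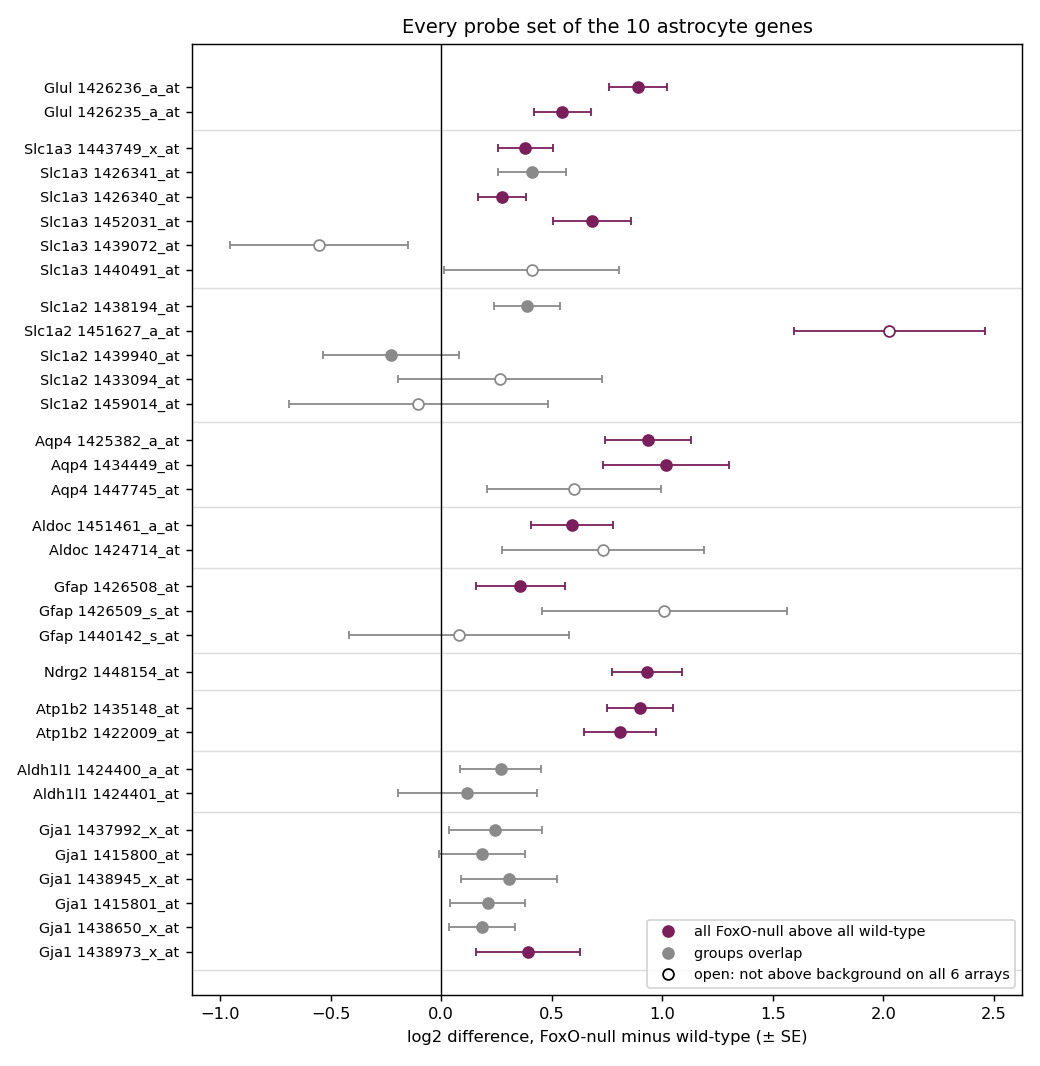
Log2 difference (FoxO-null minus wild-type, ± SE of the fit) of all 32 probe sets, grouped by gene. Purple marks the 14 probe sets with all FoxO-null arrays above all wild-type arrays, grey the 18 that overlap, and open symbols the 9 that were not above background on all 6 arrays.

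Over all 32 probe sets, 29 had a positive log2 difference and 14 had all FoxO-null arrays above all wild-type arrays, against 6.95% of 45037 probe sets. Among the 23 that lay above background on all 6 arrays, 22 were positive and 13 were separated, against 8.28% of 19423 such probe sets. The 3 negative ones, 1 of Slc1a3 and 2 of Slc1a2, were dim. At gene level, with the brightest probe set of each gene, all 10 passed the filter on low signals. The median log2 difference was 0.49, beside 0.0098 over all 12665 genes. In the limma fit over all genes, 0 of the 10 passed a Benjamini-Hochberg adjusted p under 0.05, and 5 genes did in all, or 0.0395% (0.0316% higher and 0.0079% lower). At an unadjusted p under 0.05 there were 7 of the 10, all higher, against 5.26% of all genes higher. They were not the same 7 as the separated genes: they included Slc1a2, whose groups overlapped, but not Gfap, whose groups were separated. Without wild-type 3, Ndrg2 and Atp1b2 were among the 13 of 12665 genes that passed. That was the largest count with any single array left out, and wild-type 3 was the highest wild-type line in both genes. This contrast chose the 10 genes, so it is no test of them.

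The lines of a group did not move as one. FoxO-null 1 had the highest signal of its group in 6 of the 10 genes and the lowest in none. FoxO-null 3 was the lowest in 5, Glul, Slc1a2, Ndrg2, Atp1b2 and Gja1, but the highest in Aldoc, Gfap and Aldh1l1. FoxO-null 2 was the lowest in the other 5. Among wild-type lines, wild-type 3 was the highest in Aqp4, Aldoc, Gfap, Ndrg2, Atp1b2 and Aldh1l1, and wild-type 1 was the lowest in 6 genes. In Aqp4, Aldoc, Gfap and Aldh1l1 the lines with high Xist lay below the others of their own group. Between lines of high Xist, 1 FoxO-null and 2 wild-type, log2 differences ran between 0.05 (Aldh1l1) and 1.08 (Atp1b2), and between lines of low Xist, 2 FoxO-null and 1 wild-type, between 0.17 (Gfap) and 0.88 (Glul). With Xist level as a block, Aldh1l1 was at 0.12 and Gja1 at 0.40. Averaged over the 10 genes, log2 signals relative to the mean of all 6 lines were 0.43, 0.26 and 0.19 in FoxO-null 1 to 3 and -0.42, -0.31 and -0.15 in wild-type 1 to 3. Every FoxO-null line was thus above every wild-type line, a direction that the choice of genes fixes.

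**Figure D3:**
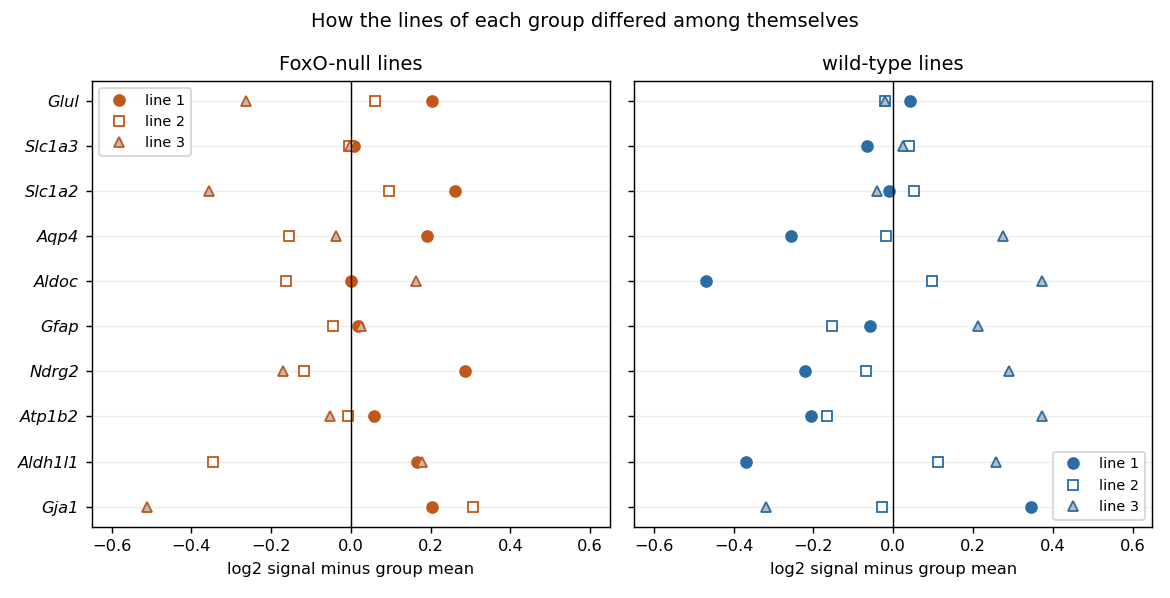
Log2 signal of each gene minus the mean of its own group, for the FoxO-null lines (left) and the wild-type lines (right), with a symbol per line. Wild-type 3 is the rightmost of its group for 6 genes, FoxO-null 3 is the leftmost for 5 genes, Glul, Gja1, Ndrg2, Atp1b2 and Slc1a2, and in the wild-type lines Glul, Slc1a2 and Slc1a3 have the narrowest spread.

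Within groups the genes fell into different line orders. With the group means taken out, Glul and Slc1a2 had r = 0.97 and Aqp4 and Ndrg2 had r = 0.94 over the 6 arrays, while Gja1 and Aldoc had r = -0.82. These describe 6 arrays that share scaling and carry no p. Over the 45 pairs, r was positive in 31, with a median of 0.47. The genes outside the list that followed the mean within-group profile most closely were Txnl4b, Camsap2, Dpysl2, Kat6a and Csrp1, with r between 0.991 and 0.996, the top 5 by this measure once clone and predicted names were left out. Of these, Csrp1 and Camsap2 also had separated groups. Csrp1, a LIM-domain protein gene, had 350 ± 55.1 in FoxO-null lines and 186 ± 46.3 in wild-type lines (log2 difference 0.91 ± 0.18, limma adjusted p 0.136), and Camsap2, a microtubule minus-end protein gene, had 499 ± 67.0 in FoxO-null lines and 322 ± 61.9 in wild-type lines (0.63 ± 0.16, 0.202).

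The stretches before the annotated starts of 4 of these genes are shown because the comparison is between forkhead factor genotypes. The 4 genes, Glul, Ndrg2, Slc1a3 and Aldoc, were separated between the groups. Gfap was also separated, but its stretch, which matched none of the motifs searched, is not shown. Each stretch shown is the 250 bases before the outermost start in RefSeq's table (GRCm38.p6), written 5′ to 3′ on the gene's strand. They are chr1:153899679-153899928 (plus strand) for Glul, chr15:8710808-8711057 (minus) for Slc1a3, chr14:51914005-51914254 (minus) for Ndrg2 and chr11:78322823-78323072 (plus) for Aldoc. Capitals mark a forkhead core in Ndrg2, a STAT motif in Slc1a3 and an RBPJ motif in Aldoc.
Glul: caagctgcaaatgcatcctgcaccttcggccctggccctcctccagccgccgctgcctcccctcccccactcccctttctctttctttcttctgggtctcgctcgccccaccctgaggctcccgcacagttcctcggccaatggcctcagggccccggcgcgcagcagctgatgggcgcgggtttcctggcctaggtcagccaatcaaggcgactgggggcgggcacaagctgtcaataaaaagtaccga
Slc1a3: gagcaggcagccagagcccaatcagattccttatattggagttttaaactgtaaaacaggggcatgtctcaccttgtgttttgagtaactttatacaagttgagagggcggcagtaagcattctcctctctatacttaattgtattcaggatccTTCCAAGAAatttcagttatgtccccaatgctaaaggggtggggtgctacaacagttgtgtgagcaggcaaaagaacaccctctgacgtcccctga
Ndrg2: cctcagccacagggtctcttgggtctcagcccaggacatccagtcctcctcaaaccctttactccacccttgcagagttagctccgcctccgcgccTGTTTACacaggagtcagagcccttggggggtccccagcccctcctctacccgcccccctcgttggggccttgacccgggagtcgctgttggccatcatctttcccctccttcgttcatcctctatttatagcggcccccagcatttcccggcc
Aldoc: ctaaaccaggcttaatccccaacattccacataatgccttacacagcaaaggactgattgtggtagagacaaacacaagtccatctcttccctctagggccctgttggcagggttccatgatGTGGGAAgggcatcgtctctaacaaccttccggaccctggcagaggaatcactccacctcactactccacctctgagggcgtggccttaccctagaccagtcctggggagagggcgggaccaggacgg
RefSeq's table held 11 such stretches for 8 of the 10 genes. The forkhead core GTAAACA was searched on both strands, and matched in 2 of the 11 stretches, those of Ndrg2 (154 bases before the start) and a second start of Aldoc (148 bases before it), against 3.17% of all 32851 stretches of the same length. The STAT motif TTCNNNGAA matched in 2 of the 11, before the Slc1a3 start and before the second Aldoc start, against 7.02% of all. The RBPJ motif GTGGGAA matched in 1 of the 11, before the outer Aldoc start (5.42% of all). The palindromic NFI motif matched in none of the 11 (0.0365% of all). No forkhead core stood in the Glul stretch. A match is a run of letters and says nothing of binding.

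The wider set of astrocyte markers leaned the same way. Like the other gene lists it was chosen with earlier results of these data known, so its counts are no independent support. Of 40 further markers, 37 were tested, 33 of them with a positive log2 difference and a median of 0.35. In limma 0 passed over all genes. At an unadjusted p under 0.05 there were 14, all higher, against 5.26% of all genes, and 10 of 37 were separated with FoxO-null above, against 8.08% of all genes. Slc6a11 (GAT-3), the astrocyte GABA transporter, read 1755, 1652 and 1512 in FoxO-null lines and 939, 691 and 1121 in wild-type lines (0.86 ± 0.16, limma adjusted p 0.109). Mmd2 read 1756, 1201 and 1377 in FoxO-null lines and 471, 682 and 898 in wild-type lines (1.10 ± 0.21, 0.123). Both passed without wild-type 3 (2 of the list). Wild-type 3 was the highest wild-type line in both genes. Chosen after their values were seen, Cst3 (cystatin C) was at 0.75 ± 0.14 and Apoe (the lipid carrier of glia) at 1.05 ± 0.29, while S100b was at -0.0084 ± 0.29, Sox9 at 0.04 ± 0.13 and Sparcl1 at -0.02 ± 0.14 (limma adjusted p 0.125, 0.250, 0.995, 0.942 and 0.977).

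Genes of the same transport tasks did not share one direction. Of 18 glutamate and glutamine genes, 14 were tested and 7 were positive, with a median of -0.01. In limma 0 passed, and 2 had an unadjusted p under 0.05, both higher, against 5.26% of all genes higher. These were the mitochondrial glutamate dehydrogenase gene Glud1, with 2532 ± 286 in FoxO-null and 1756 ± 155 in wild-type lines (0.52 ± 0.12, limma adjusted p 0.185), and the glutamine transporter gene Slc38a3 (0.29 ± 0.12, 0.438). Glud1 and Slc38a3 had all FoxO-null arrays above all wild-type arrays (8.08% of all genes). Named after their values were seen, Slc1a5 (-0.36 ± 0.18) and Slc38a2 (-0.21 ± 0.10) had all FoxO-null arrays below (limma adjusted p 0.529 and 0.516). Of 21 ion and water genes, 14 were tested and 9 were positive, with a median of 0.19. In limma 0 passed, and 1 had an unadjusted p under 0.05, against 5.26% of all genes higher. That was Fxyd6, a sodium pump regulator, with 191 ± 12.7 in FoxO-null and 116 ± 20.9 in wild-type lines (0.71 ± 0.17, limma adjusted p 0.196); Aqp11 was at 0.35 ± 0.16 (0.497). Of 13 connexin and pannexin genes only 3 passed the filter on low signals, Gjc1 at -0.04 ± 0.18 and Gjc3 at -0.11 ± 0.46 among them, and 0 had an unadjusted limma p under 0.05. Of 9 tested paralogs, 0 passed and 2 had an unadjusted limma p under 0.05, both higher, against 5.26% of all genes higher. They were Aldh1l2 (0.49 ± 0.18, limma adjusted p 0.369) and Ndrg4 (0.51 ± 0.23, 0.477). With single arrays left out, the number higher at an unadjusted p was 1 to 3 in the glutamate list, 1 to 2 in the ion list and 0 to 2 in the paralogs, and the number lower was 0 to 1, 0 to 1 and 0 to 2 in the same lists.

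Among 25 tested genes of astrogenic signalling and its factors, Hes5, a Notch effector, rose and was the 1 gene to pass (0.0316% of all genes passed as higher). It read 406, 349 and 295 in FoxO-null lines and 114, 134 and 133 in wild-type lines (1.41 ± 0.15, limma adjusted p 0.0157); it did not pass without FoxO-null 1. The list's median was 0.14 with 18 positive. In limma 4 genes had an unadjusted p under 0.05, all higher, against 5.26% of all genes higher. Of 12 tested reactive astrocyte genes, 4 were positive, with a median of -0.07; 0 passed and 0 had an unadjusted limma p under 0.05, with Emp1 at -0.69 ± 0.35 (adjusted p 0.532) and Gbp2 at 0.80 ± 0.42 (0.552). Without FoxO-null 2, and likewise without wild-type 1, 2 of these were lower at an unadjusted p.

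**Figure D4:**
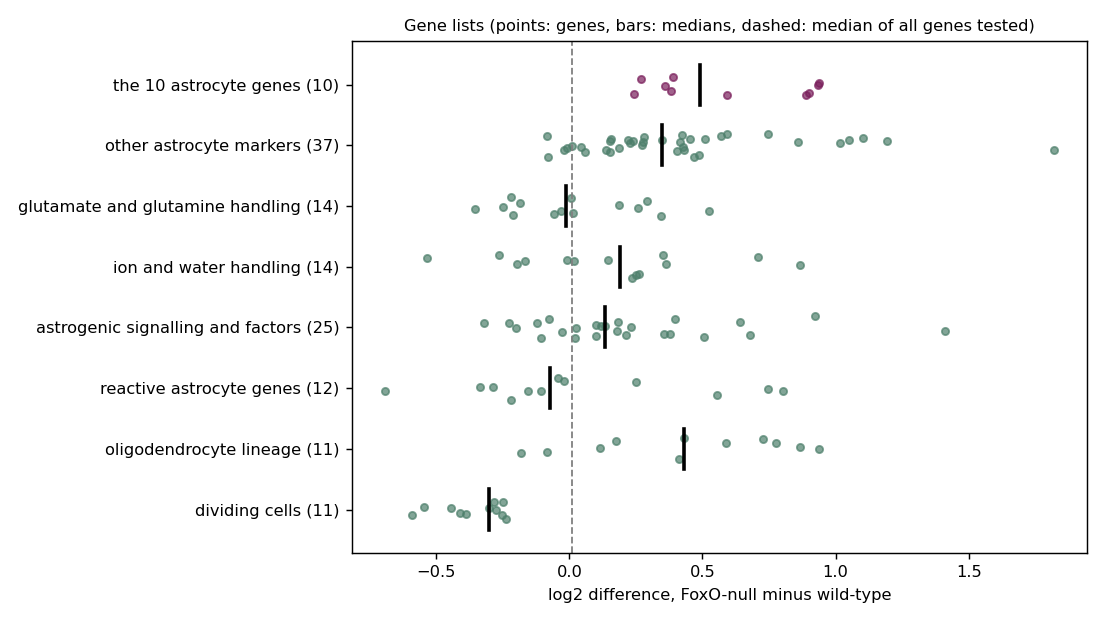
Log2 difference (FoxO-null minus wild-type) of each tested gene in 8 lists, with a bar at each list's median and a dashed line at the median of all genes tested, 0.0098. Medians lie at 0.49 for the 10 genes, 0.35 for other astrocyte markers and 0.43 for oligodendrocyte lineage genes, and all 11 genes of dividing cells lie below 0.

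Marker sums of other cell types and states were also set side by side. The summed signal of 12 oligodendrocyte lineage genes was 17555 to 18190.1 in FoxO-null lines and 14019.9 to 15683 in wild-type lines, with Mog not above background on any array; of 11 tested, 9 were positive, and Cnp, a myelin enzyme gene, was the 1 that passed (0.87 ± 0.12, limma adjusted p 0.0471). Cnp passed in 4 of 15 alternative settings, with adjusted p between 0.0366 and 0.485 over them. Of the 11 genes, 6 were higher at an unadjusted limma p under 0.05 (5.26% of all genes), and 5 had all FoxO-null arrays above all wild-type arrays (8.08%). The summed signal of the 10 neural stem cell markers was 27318 to 30564 in FoxO-null lines and 21688 to 29585 in wild-type lines, with overlapping groups. The low end was wild-type 1 alone, with wild-type 2 at 29295 and wild-type 3 at 29585. Of the 10 stem cell markers, 4 were higher at an unadjusted limma p under 0.05 (5.26% of all genes) and separated with FoxO-null above (8.08%). They were Hes5, Nr2e1 (0.67 ± 0.17, limma adjusted p 0.214), Msi1 (0.51 ± 0.18, 0.372) and Prom1 (0.41 ± 0.17, 0.439). Hes5, the same gene as in the astrogenic list, was the 1 that passed (0.0316% of all genes passed as higher). The median of the 10 was 0.25. The summed signal of 11 genes of dividing cells was 10949.8 to 12262 in FoxO-null lines and 13985 to 15282 in wild-type lines; all 11 had a negative log2 difference, 9 at an unadjusted limma p under 0.05 (4.94% of all genes were lower at that p), and 0 passed. Leaving out either FoxO-null 1 or wild-type 3 left 4 at that p. The part of these 3 lists in the astrocyte values was not tested. Summed signals overlapped between the groups for neurons (1706 to 1743 in FoxO-null, 1592 to 1941 in wild-type lines; Slc17a6 not above background), ependyma (112 to 120.0 in FoxO-null, 87.3 to 124 in wild-type lines; Ccdc39) and endothelium and mesenchyme (257 to 370.3 in FoxO-null, 228 to 373 in wild-type lines; Pecam1, Tek and Dcn). For microglia they were 144 to 172 in FoxO-null and 112 to 159.8 in wild-type lines, with Aif1, Itgam, Ptprc, C1qa and Tyrobp not above background on any array. The highest neuron sum, 1941, was that of wild-type 1. Most of the neuron sum was Map2, at 1028 to 1346 over the arrays. Of 11 neuron genes tested, 6 were positive, and 1 was lower at an unadjusted limma p under 0.05 (4.94% of all genes). That was Tubb3 (-0.64 ± 0.27, limma adjusted p 0.452). Named after their values were seen, Tubb3 and Syt1 (-0.43 ± 0.26, 0.607) were separated with FoxO-null below, and Syp (0.37 ± 0.21, 0.566) with FoxO-null above.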

How the data were processed

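The authors deposited linear intensity signals. The submitters' processing notes name MAS5, without a version; genome build and later steps are not given in the sources used here. On the FoxO-null 1 array, the 1 examined for this, the mean after trimming 2% of values at each end was 100. Medians differed at most 1.29-fold, so the scaling was kept. From the deposited signals, log2(signal + 5.94) was computed, where 5.94 was the 20th percentile of the table; on that scale the change of dim genes is understated. Each gene took its probe set of highest mean, and genes under the 40th percentile (signal 16.2) were left out, leaving 12665. limma 3.58.1 in R 4.3.3 (lmFit, eBayes with intensity trend, with the data.table package, version 1.17.8) compared the groups over all 6 arrays without covariates, two-sided, with Benjamini-Hochberg adjustment over all genes; values of single probe sets came from a separate unfiltered fit (45037 probe sets, controls removed). The number of arrays limits the precision. No label says that the lines came from separate animals or cultures, so p-values measure only the spread between these samples, which may be technical. The fit was tested on simulated data. Members, gene lists and motifs were chosen with earlier results of these data known. Besides the members, the text names from each list the genes past the threshold (at most 4) or the 2 of smallest p, and the 5 genes most like the members within groups; others are said to be chosen later. Probe sets of several genes were not used. Alternatives, of which the block on Xist level was chosen after seeing the data, were another offset, no filter, median centring, quantile normalization, the mean of all probe sets per gene, no intensity trend, the replicate number or Xist level (signal above or below 1000) as a block and each array left out. Python 3.11.15 with pandas 2.3.3 and matplotlib 3.10.9 made summaries and plots.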

Additional observations from a re-analysis of the deposited data

How the results depend on the processing

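All 10 genes kept a positive log2 difference under each of the 15 alternatives at gene level, and the median over them ranged between 0.40 and 0.62. Of 416 probe set values under 13 alternatives, 12 changed sign, in 5 probe sets, all dim. The count of genes past the threshold, 5, was 1 with an offset of 1, with no filter on low signals and with the mean of all probe sets per gene, 3 with quantile normalization, 2 with Xist level as a block, and 0 with median centring (1048 at an unadjusted limma p under 0.05) and with no intensity trend (1116). It ranged between 0 (819 unadjusted, without FoxO-null 1) and 13 (without wild-type 3) when single arrays were left out. The count of the 10 genes that passed, 0, was 1 with an offset of 32 (Glul) and 0 to 2 with single arrays left out. In other astrocyte markers it was 0 to 2 with single arrays left out. In astrogenic signalling the count of 1 was 0 with median centring and with no intensity trend, and 0 to 1 with single arrays left out. The glutamate, ion, connexin, paralog and reactive lists had 0 past the threshold under each of these alternatives. With the replicate number as a block 6 genes passed. Same-numbered lines had correlations of 0.02, 0.09 and 0.12 between their deviations from the group means. Between differently numbered lines these ran from -0.16 to 0.08. Whether same-numbered lines share more than a number was not tested. The count of separated members was 7 to 9 with single arrays left out, where 11.4% to 15.1% of all genes were separated. The unadjusted count of 9 in dividing cells was 4 without FoxO-null 1 or wild-type 3, 4 with no intensity trend and 5 with the mean of all probe sets. Counts at an unadjusted p, of separated groups and of the 10 genes past the threshold, and the block on Xist level, were added after seeing the data. Dim signals limit 9 of 32 probe sets, of Slc1a2, Slc1a3, Gfap, Aqp4 and Aldoc, which were not above background on all arrays. The causes were not tested.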
